A study of Homo sapiens with 6 samples.

Results

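SR proteins are RNA-binding factors with a domain rich in arginine and serine repeats that help to define exons and carry mRNA out of the nucleus. The values described here are those of 10 genes of this family, SRSF1, SRSF2, SRSF3, SRSF4, SRSF5, SRSF6, SRSF7, SRSF10, SRSF11 and TRA2B, taken by name, and of all 117 of their annotated transcripts among 167027 transcripts of 35052 genes. By annotated type, 42 of these transcripts were protein coding, 22 carried the type nonsense-mediated decay (NMD), 33 retained intron and 20 processed transcript. 19 of the 117 had no reads in any library.

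The samples were polyA RNA from EoL-1, a human cell line set up from an eosinophilic leukaemia and given the cell type eosinophil in the labels. 3 libraries were labelled JUN knockout and 3 were labelled ATF3/JUN double knockout, so both groups carry the JUN knockout and the comparison asks what goes with the added ATF3 knockout. The labels' protocols name CRISPR/Cas9 editing, and no unedited library was analysed here. The labels do not say whether libraries of a group came from separate cultures or clones. The names of the deposited data carry a different code for each library of a group, whose meaning is not stated, so a p-value here reflects the spread between libraries, whatever its source.

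Most SR protein genes carry a stretch of sequence, often called a poison exon, whose inclusion places a stop codon well before the last exon junction. An mRNA of that kind is a substrate of nonsense-mediated decay, the pathway that degrades transcripts with premature stops, and SR proteins are known to promote inclusion of such exons in their own transcripts and in those of relatives, which limits their own level. Transcripts of these genes that keep an intron are also common, and those held in the nucleus are not translated.

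In all 22 NMD transcripts the annotated stop codon lay 95 to 1138 bases before the last exon junction, but not all of them carry it in an added exon. The stop lay in an exon wholly outside the exons used by the coding transcripts in 10 of them, partly outside in 5 and wholly inside in 7. Cassette exons that bring in the premature stop are given for 5 of these transcripts, from their first base to the stop codon, in the sense direction, with the stop codon in capitals. They are GENCODE release 29 reference sequence on GRCh38, and they are printed because these exons set the NMD transcripts apart from the coding ones. They do not all carry the NMD reads of their gene: SRSF7-204 had 0 to 156 reads per library against 1558 to 2565 on SRSF7-208, and SRSF3-203 had 119 to 203 against 819 to 974 on SRSF3-204.
SRSF3-203, chr6:36599821-36599854, plus strand: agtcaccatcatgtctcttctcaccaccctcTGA
SRSF4-206, chr1:29166009-29166064, minus strand: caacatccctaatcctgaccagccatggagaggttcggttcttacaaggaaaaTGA
SRSF6-202, chr20:43459153-43459304, plus strand: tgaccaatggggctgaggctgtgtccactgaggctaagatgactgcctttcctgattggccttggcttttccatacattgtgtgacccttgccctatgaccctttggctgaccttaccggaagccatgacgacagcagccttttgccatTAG
SRSF7-204, chr2:38749319-38749346, minus strand: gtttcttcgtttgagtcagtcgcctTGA
TRA2B-206, chr3:185931772-185931852, minus strand: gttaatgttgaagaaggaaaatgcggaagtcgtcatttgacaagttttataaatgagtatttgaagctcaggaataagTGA

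The whole cassette exons are 456 bases long in SRSF3-203, 175 in SRSF4-206, 268 in SRSF6-202, 449 in SRSF7-204 and 276 in TRA2B-206. No window of 31 bases in these sequences occurred in transcripts of other genes, for those long enough to hold one.

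A second set of transcripts holds intron sequence in place of a cassette exon, and the boundaries are shown because these transcripts take a large part of the reads. In SRSF7-208, of the NMD type, an intron of 875 bases is kept whole, and the reading frame runs from the exon into it and stops soon after, with the stop codon in capitals. In TRA2B-215, a retained intron transcript, the capitals mark the acceptor AG at the end of the kept intron sequence, just before an exon that coding transcripts use. In SRSF5-212, also a retained intron transcript, the capitals mark the donor GT at the start of kept intron sequence. From this donor, coding transcripts splice out 259 or 1215 bases, and SRSF5-212 keeps the whole of either.
SRSF7-208, chr2:38749516-38749548, minus strand: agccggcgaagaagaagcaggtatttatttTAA
TRA2B-215, chr3:185926715-185926794, minus strand: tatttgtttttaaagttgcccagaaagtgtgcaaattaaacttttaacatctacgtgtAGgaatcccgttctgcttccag
SRSF5-212, chr14:69769232-69769311, plus strand: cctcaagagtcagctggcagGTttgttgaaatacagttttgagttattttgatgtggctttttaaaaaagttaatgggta

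The cassette exon of SRSF7-204 lies inside the intron that SRSF7-208 keeps, and the cassette exon of SRSF3-203 lies inside the retained intron transcript SRSF3-207. That of SRSF4-206 lies inside the retained intron transcript SRSF4-208, and that of TRA2B-206 inside the retained intron transcripts TRA2B-212 and TRA2B-214. The classes named by the annotation are thus not separate in sequence, and reads from an included cassette exon can in part be assigned to a transcript that keeps the intron around it. Transcripts of the coding type can keep an intron too, and their reads count as coding here. SRSF1-205 keeps 200 intron bases and held 52.14% to 59.15% of SRSF1 reads. SRSF2-203 keeps 995 and held 19.57% to 29.43% of SRSF2 reads.

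**Figure D1:**
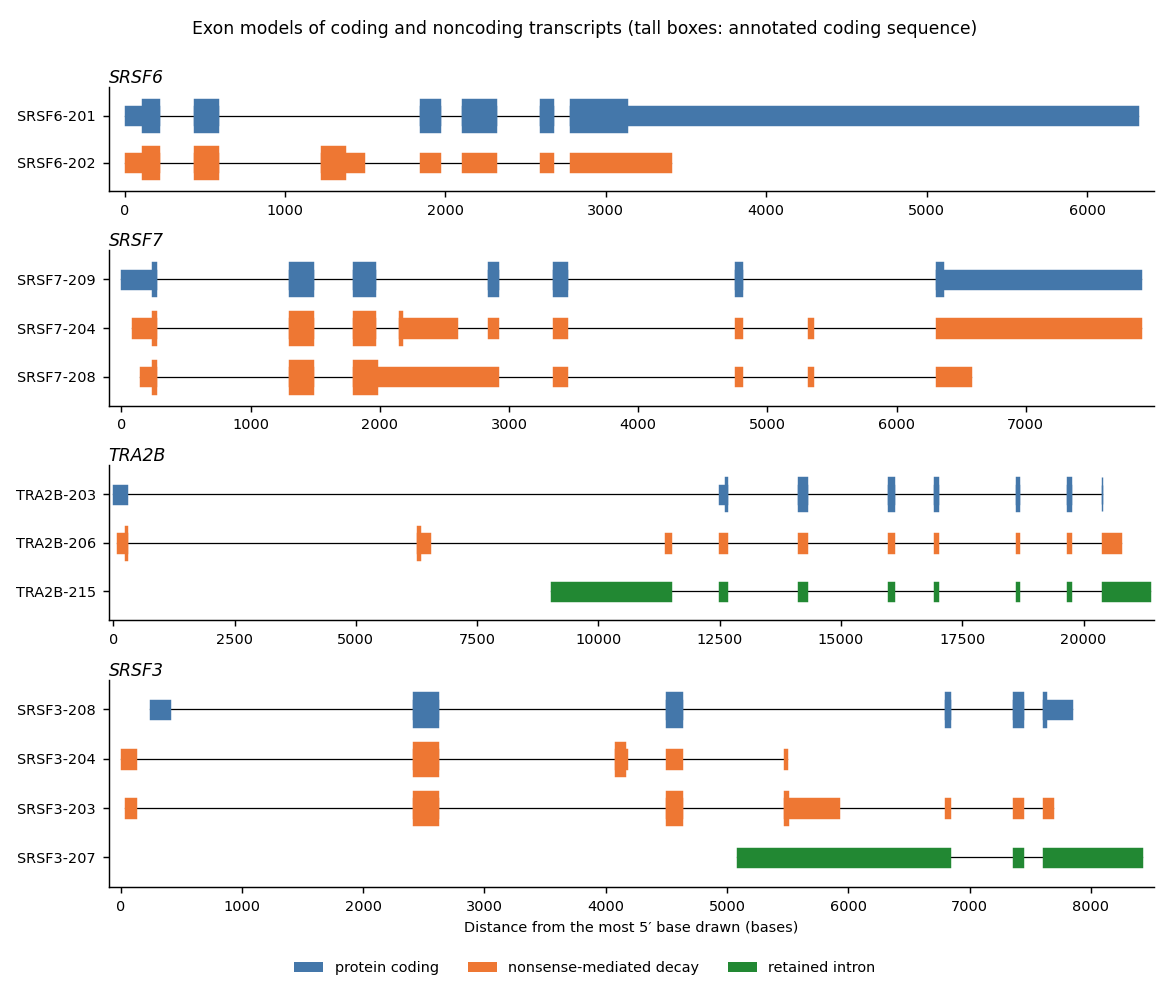
Exon models of selected transcripts of SRSF6, SRSF7, TRA2B and SRSF3, drawn to scale within each gene with distance in bases on the horizontal axis. Tall boxes are annotated coding sequence, low boxes are other exon sequence and lines are introns. The tall boxes of each NMD transcript end in the cassette exon or kept intron, before the last exon junction.

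The libraries held 26146998 to 29567970 estimated reads. JUN had 360, 756 and 638 reads in the JUN knockout libraries and 344, 438 and 727 in the double knockout libraries. ATF3, the gene that separates the groups, had 550, 380 and 231 reads against 325, 265 and 216. These ranges overlapped, so the RNA level of ATF3 did not separate the groups (edgeR quasi-likelihood log2 difference -0.48, SE 0.32, adjusted p = 0.932), and "double knockout" stands for the label throughout. An edit that leaves RNA in place would not show in these values. Of 8 eosinophil markers, EPX, CLC and IL5RA were at 0 in all 6 libraries, and the list summed to 981 to 2964 reads, most of them from RNASE2. Of 6 myeloid markers none was at 0, with sums of 18342 to 23332 reads. T cell markers summed to 0 or 1 read, erythroid markers to 1 to 6, B cell markers to 67 to 211, and epithelial and fibroblast markers to 47 to 97.

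The libraries did not fall apart by genotype over all genes. JUN knockout replicate 1 was closer to double knockout replicates 1 and 2 than to the other JUN knockout libraries, and JUN knockout replicates 2 and 3 were closer to double knockout replicate 3 than to the other double knockout libraries. The mean chi-square per gene between the reads of a pair of libraries, where sampling noise alone gives about 1, was 12.5 to 22.4 among the first 3 libraries, 13.65 to 20.3 among the other 3 and 30.5 to 72.6 between a library of one set and one of the other. The summed reads of 4 monocyte markers divided the libraries in the same way, with 3908, 4584 and 6716 reads in the first set and 11687, 10403 and 13427 in the other. Most of these reads came from LYZ, and the other markers of the list did not share the division. FCGR1A was mostly higher in the first set, at 540, 509 and 416 reads against 423, 254 and 270. CSF1R overlapped, and CD14 had 0 to 5 reads. The part of this division in the results was not tested.

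All 10 SR genes were well expressed, and none passed the test at the level of the whole gene. In CPM (reads scaled to a common library total after TMM adjustment), SRSF3, a small SR protein linked to mRNA export, was the highest at 530 ± 62.3 (SD, n = 3) in the JUN knockout libraries and 491 ± 26.3 in the double knockout libraries. SRSF4 was the lowest at 144 ± 15.4 and 130 ± 7.32. All 10 log2 differences were below 0, with a median of -0.14 beside 0.00320 for the 12954 genes tested. By edgeR's quasi-likelihood test 0 of 10 members were called, where 0% of all genes were called, and the members' adjusted p-values ran from 0.887 to 0.986. None had an unadjusted p under 0.05, and DESeq2 called none of them, where it called 0.548% of all genes. Without JUN knockout replicate 3, which had the highest CPM of the 6 libraries for every member, 6 of 10 differences remained below 0 and the median was -0.0578.

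SRSF10 and SRSF11 were the members whose CPM did not overlap between the groups, both lower in the double knockout, which is 2 of 10 where 5.94% of all genes showed this. SRSF10, which can act as a splicing repressor, had 282, 299 and 322 CPM in the JUN knockout libraries and 274, 267 and 274 in the double knockout libraries (log2 difference -0.15, SE 0.079). SRSF11 had 375, 396 and 420 against 335, 372 and 362 (log2 difference -0.16, SE 0.082). In bulk RNA, fewer cells of a type and less RNA per cell cannot be told apart.

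The larger pattern lay in how each gene's reads were divided among transcript classes. Averaged over the 6 libraries, NMD and retained intron transcripts together held 58.9% of the reads of TRA2B, an SR-like activator that binds purine-rich exon sequences. They held 44.5% in SRSF5, 43.8% in SRSF3, 36.5% in SRSF7, 27.3% in SRSF10 and 25.2% in SRSF6. They held 16.4% in both SRSF4 and SRSF1, 7.79% in SRSF2 and 0.486% in SRSF11. The median of the 10 was 26.3%, beside 11.5% for all 5756 genes with enough reads in both parts. Long noncoding transcripts collect more reads than short ones, so this is a share of reads and not of molecules, and per length the order of the genes was another. As a share of TPM, in the JUN knockout and double knockout libraries, the noncoding part was 52.2% ± 0.807 and 45.8% ± 2.90 in SRSF6 and 47.5% ± 1.79 and 53.9% ± 2.01 in SRSF1, the 2 highest. It was 33.3% ± 2.64 and 32.3% ± 0.691 in TRA2B and 19.0% ± 1.43 and 17.7% ± 3.36 in SRSF2. SRSF11 was the lowest on both scales, with 1.35% ± 0.376 and 1.43% ± 0.159 of its TPM.

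The class that made up the noncoding part differed from gene to gene. SRSF6 had NMD reads and no annotated retained intron transcript, and SRSF5 had retained intron reads and none of the NMD type. In SRSF7 the NMD class held 32.95% ± 2.07 and 29.4% ± 0.586 of reads and the retained intron class 5.52% ± 0.460 and 4.97% ± 0.549, in the JUN knockout and double knockout libraries. In TRA2B both were large: the retained intron class held 44.6% ± 4.06 and 40.8% ± 2.32, and the NMD class 15.2% ± 1.198 and 17.3% ± 1.48. SRSF11, which had under 1% in either class, had 51.1% to 58.2% of its reads in processed transcripts, a type without an annotated open reading frame that is counted neither as coding nor as noncoding here.

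**Figure D2:**
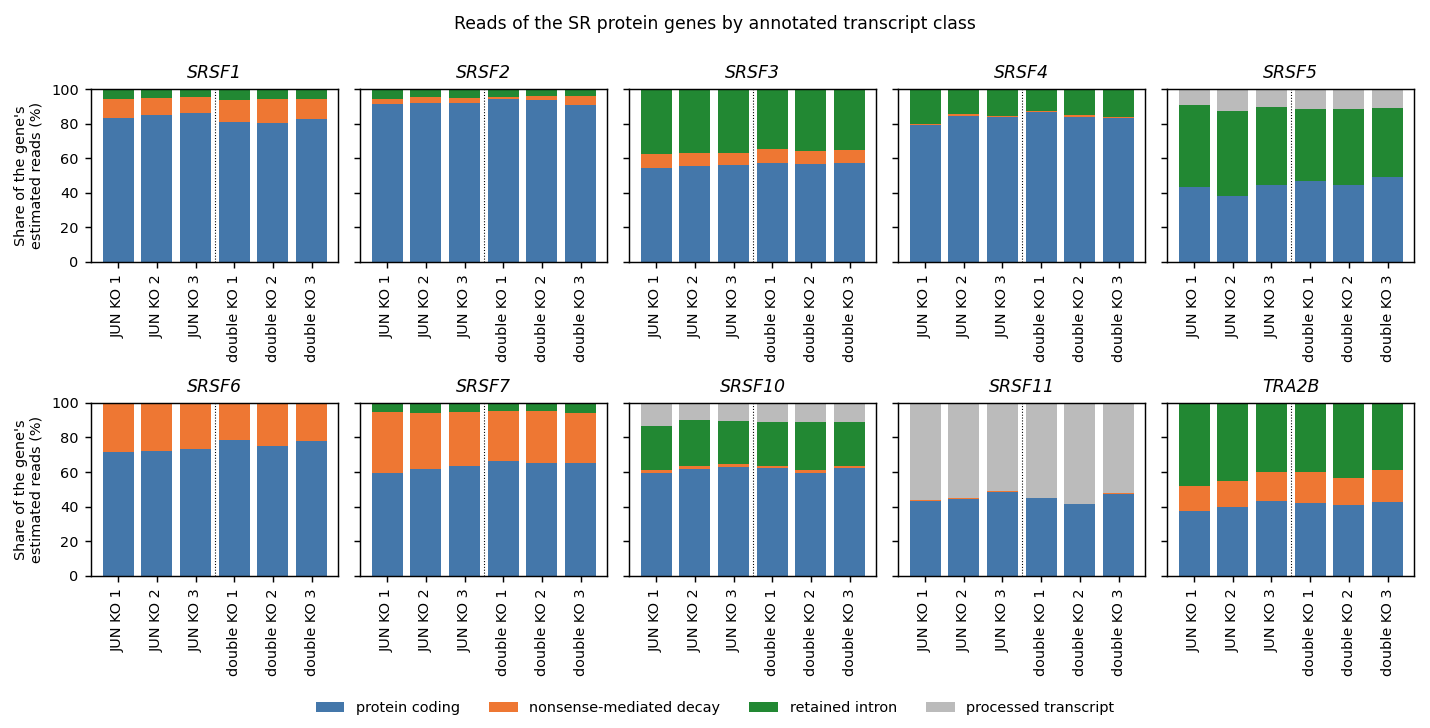
Share of each gene's estimated reads (vertical axis, percent) in each annotated transcript class, 1 bar for each library, with JUN knockout libraries left of the dotted line and double knockout libraries right of it. TRA2B has less than 44% of its reads in coding transcripts in every library, whereas SRSF2 has over 91%, and SRSF11 is dominated by processed transcripts.

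Over the 10 genes together, the noncoding share of reads was 30.1%, 28.6% and 27.2% in the JUN knockout libraries and 27.3%, 27.9% and 26.8% in the double knockout libraries. The groups overlapped, and the means were 28.6% ± 1.48 and 27.4% ± 0.506. In all other genes the share was 9.36% ± 0.0683 and 8.57% ± 0.178, and there the groups did not overlap. The retained intron share was 19.3% in the JUN knockout and 18.1% in the double knockout libraries for the SR genes, and 5.71% and 4.93% for all other genes. The NMD share was 9.35% and 9.29% in the SR genes and 3.65% and 3.64% in all other genes.

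The noncoding-to-coding ratio of each gene was then tested, which sets the gene's own level aside. None of the 10 members was called by limma, where 0% of the 5756 genes were called, and the lowest adjusted p of a member was 0.286. 4 members had an unadjusted p under 0.05, where 13.1% of all genes did, and the edgeR fit with coding reads as an offset called no gene either. The ratio was lower in the double knockout for 7 of 10 members with a median log2 difference of -0.17, beside 67.6% of all genes and a median of -0.19. The 6 libraries separated without overlap in 4 members on the lower side, where 17.4% of all genes did, and in 1 member on the higher side, where 3.28% did.

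The 4 lower members were SRSF3, SRSF5, SRSF6 and SRSF7. For SRSF6, whose protein has a pair of RNA recognition motifs, the log2 ratio was -1.35, -1.40 and -1.44 in the JUN knockout libraries and -1.88, -1.57 and -1.84 in the double knockout libraries. All 3 double knockout values lay below all JUN knockout values, and the difference was -0.37 (SE 0.12, limma adjusted p = 0.311). SRSF5 had ratios near equality, 0.12, 0.35 and 0.027 against -0.16, -0.021 and -0.28 (difference -0.32, SE 0.12, limma adjusted p = 0.344). SRSF7, which carries a zinc knuckle beside its RNA recognition motif, had -0.56, -0.68 and -0.79 against -0.98, -0.93 and -0.90 (difference -0.26, SE 0.098, limma adjusted p = 0.342). In SRSF3 the groups were closer, at -0.24, -0.30 and -0.36 against -0.43, -0.38 and -0.44, with a difference of -0.11 (SE 0.073). As a share of TPM the noncoding part of SRSF3 overlapped, at 37.2%, 35.9% and 34.6% against 35.2%, 35.05% and 33.8%. In SRSF5, SRSF6 and SRSF7 that share stayed lower without overlap.

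SRSF1, the founding member of the family, went the other way. Its log2 ratio was -2.37, -2.56 and -2.65 in the JUN knockout libraries and -2.13, -2.04 and -2.26 in the double knockout libraries. Every double knockout value was above every JUN knockout value, and the difference was 0.38 (SE 0.12, unadjusted p = 0.0138, limma adjusted p = 0.286). Both noncoding classes of SRSF1 lay higher relative to coding, the NMD class by 0.40 (SE 0.12) and the retained intron class by 0.34 (SE 0.15).

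The other 5 members overlapped between the groups. SRSF2 and SRSF4 had differences of -0.27 (SE 0.19) and -0.23 (SE 0.19), TRA2B -0.097 (SE 0.11), SRSF10 0.016 (SE 0.10) and SRSF11 0.15 (SE 0.32). In SRSF11 the noncoding part came to 42 to 65 reads per library. In SRSF4 the sign depended on the unit: with TPM in place of reads the difference was 0.36, because the retained intron share of TPM was 15.5% in double knockout replicate 3 and 4.64% to 6.42% in the other 5. That library had 61.0 reads on the short transcript SRSF4-205, which had at most 8.40 in any other.

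**Figure D3:**
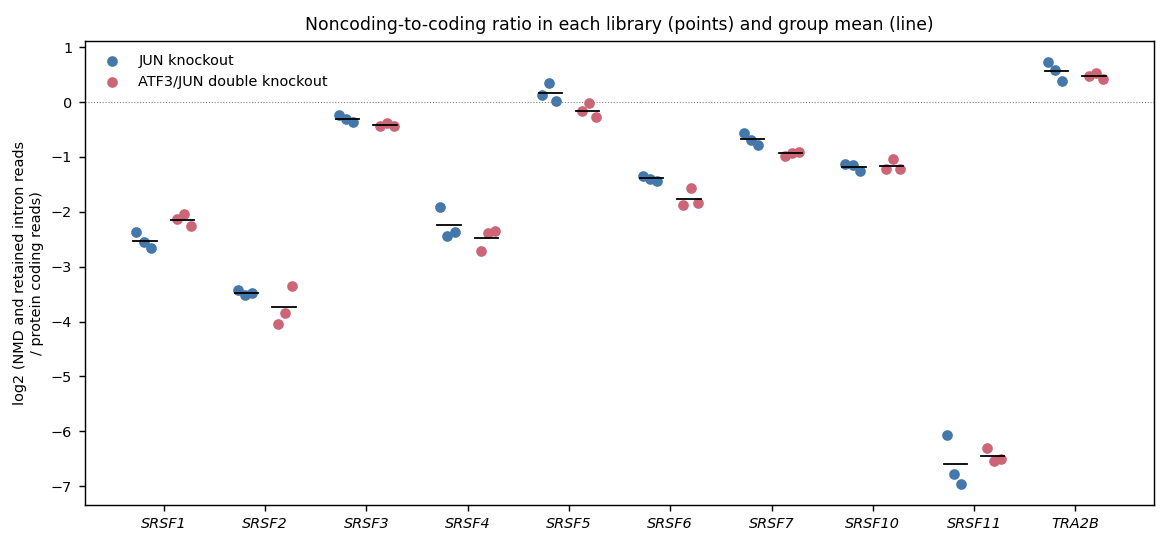
Log2 ratio of NMD and retained intron reads to protein coding reads (vertical axis) for each gene, with 1 point per library and a line at the group mean. SRSF1 is the gene whose double knockout points all lie above its JUN knockout points, and SRSF3, SRSF5, SRSF6 and SRSF7 have the reverse order.

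JUN knockout replicate 1 had the highest ratio of the 6 libraries in 6 of 10 members, and the highest mean over them. After each gene was centred, the mean over the 10 members was 0.20 in that library, 0.033 and -0.068 in the other JUN knockout libraries and -0.12, -0.00039 and -0.049 in the double knockout libraries. Without it the median difference of the members was -0.077, beside -0.21 for all genes, and 7 of 10 remained below 0.

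Split by class, the retained intron ratio was lower in most SR genes, as it was in most genes of the table, and the NMD ratio had no common direction. The retained-intron-to-coding ratio could be tested in 8 members, and was lower in 6 with a median of -0.21, beside 76.0% of all 4632 genes and a median of -0.29. It separated the groups on the lower side in SRSF2, SRSF3 and SRSF5, 3 of 8 where 22.6% of all genes did, and on the higher side in SRSF1, where 2.33% did. The NMD-to-coding ratio could be tested in 9 members and was lower in 5, with a median of -0.059 beside -0.017 over 2964 genes. It separated the groups on the lower side in SRSF6 and SRSF7, 2 of 9 where 7.29% of all genes did, and on the higher side in SRSF1 and TRA2B, 2 of 9 where 6.28% did. As a share of the gene's TPM, the retained intron classes of SRSF1 and SRSF2 overlapped, and those of SRSF3 and SRSF5 stayed lower without overlap. On that scale the NMD classes of SRSF7 and TRA2B overlapped, and those of SRSF1 and SRSF6 did not. None of the class ratios was called by limma, in the members or in any gene. Unadjusted p-values under 0.05 numbered 2 of 8 in the retained intron ratio, where 18.0% of all genes had one, and 3 of 9 in the NMD ratio, where 6.34% did. Without JUN knockout replicate 1 the retained intron median of the members was -0.089 and that of all genes -0.32. Without double knockout replicate 1 the NMD ratio was lower in 3 of 9 members, with a median of 0.071.

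**Figure D4:**
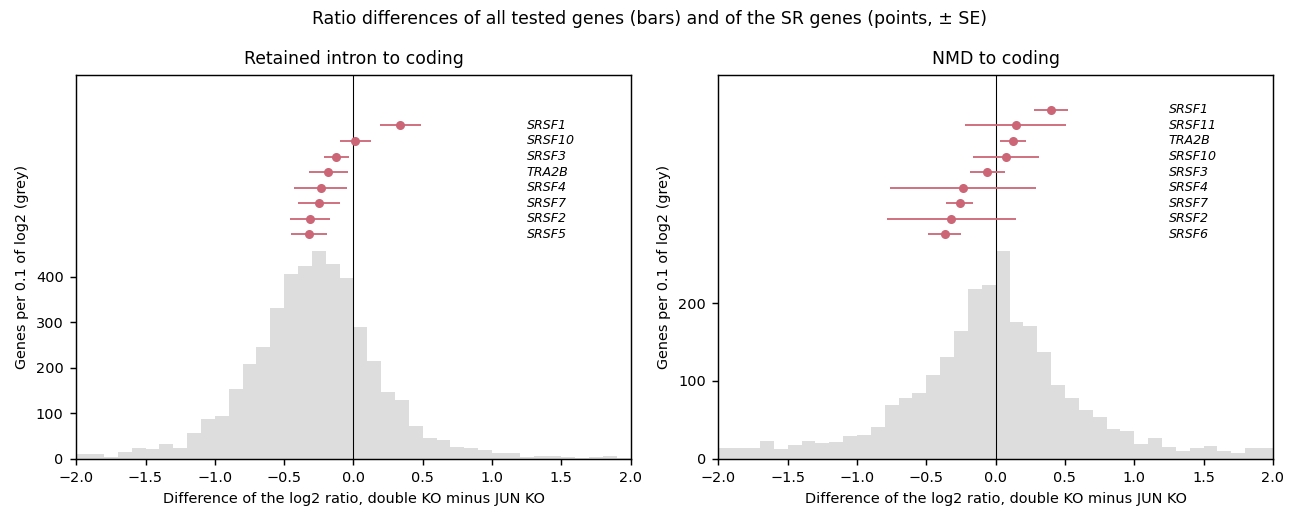
Distribution over all tested genes of the difference in log2 ratio between double knockout and JUN knockout (grey bars, genes per bin of 0.1), for retained intron to coding (left) and NMD to coding (right). Points with SE bars are the SR genes, placed in order above the bars. The grey distribution on the left has its median at -0.29 and that on the right at -0.017, and SRSF1 is the rightmost SR gene in both.

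Single transcripts were compared in TPM, a level per length, and by edgeR on their reads. Of 83 member transcripts with enough reads 0 were called, where 0% of 49298 transcripts were called, and 8 had an unadjusted p under 0.05, where 5.93% of all did. The TPM of 19 were lower without overlap, where 9.10% of all were, and of 8 higher without overlap, where 5.35% were. DESeq2 called 2 member transcripts, TRA2B-215, where 1.67% of all retained intron transcripts were called lower, and SRSF1-206, where 0.838% of all NMD transcripts were called higher. Salmon divides reads among overlapping transcripts, and that assignment error is not part of either test.

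TRA2B-215 was the member transcript with the lowest p. This retained intron transcript begins inside an intron and has 2339 of its 4141 bases outside the coding exons. Its TPM was 31.4, 29.2 and 30.4 in the JUN knockout libraries and 22.6, 23.3 and 23.4 in the double knockout libraries, so every double knockout value was below every JUN knockout value. The log2 difference was -0.37 (SE 0.071), with an unadjusted p of 0.00246 and an adjusted p of 0.379 by edgeR, and an adjusted p of 1.27e-05 by DESeq2. All retained intron reads of TRA2B together, most of them on TRA2B-215, were at 185, 178 and 180 CPM against 144, 144 and 150 (log2 difference -0.31, SE 0.069, adjusted p = 0.369 by edgeR and 0.000848 by DESeq2). For this class 0% of units were called by edgeR and 2.90% were called lower by DESeq2. Relative to the coding reads of TRA2B, the groups overlapped. That log2 ratio was 0.36, 0.18 and -0.11 against -0.059, 0.083 and -0.13 (difference -0.18, SE 0.14).

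The NMD transcript of the same gene did not separate the groups. Its cassette exon lies in the retained intron transcripts TRA2B-212 and TRA2B-214, which overlapped in TPM, and not in TRA2B-215. TRA2B-206, whose cassette exon is given above up to its stop codon, had 34.7, 34.6 and 42.3 TPM against 37.7, 32.2 and 41.1, with complete overlap (log2 difference 0.020, SE 0.17). The main coding transcript TRA2B-203 had 103 ± 9.39 and 96.0 ± 2.74 TPM. The log2 NMD-to-coding ratio of TRA2B was -1.41, -1.42 and -1.39 against -1.23, -1.39 and -1.21, a difference of 0.13 (SE 0.095) in which the lowest double knockout value matched the highest JUN knockout value to 2 decimals.

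SRSF6-202 and SRSF7-208, the main NMD transcripts of their genes, were lower without overlap. SRSF6-202 had 31.01, 28.8 and 33.5 TPM in the JUN knockout libraries and 21.6, 26.7 and 26.1 in the double knockout libraries (log2 difference -0.30, SE 0.13, edgeR adjusted p = 0.848). Its coding partner SRSF6-201 did not follow, with 28.5 ± 2.81 and 29.3 ± 2.76 TPM. By these estimates the NMD transcript was about as abundant per length as the coding one. SRSF6-202 has 268 of its 1680 bases outside the coding exons, and its last exon ends earlier than that of SRSF6-201. The transcripts thus differ in more than the cassette exon. How many of the SRSF6-202 reads covered that exon is not given by these values.

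SRSF7-208, which keeps the 875-base intron, had 46.3, 45.5 and 49.2 TPM against 32.9, 34.7 and 37.9 (log2 difference -0.39, SE 0.11, unadjusted p = 0.0114, edgeR adjusted p = 0.646, DESeq2 adjusted p = 0.0754). The cassette exon transcripts SRSF7-203 and SRSF7-204 had at most 2.39 TPM in any library. The retained intron transcript SRSF7-211 overlapped at 32.1 ± 4.30 and 24.7 ± 4.45 TPM. The coding transcripts SRSF7-202 and SRSF7-209 had 67.6 ± 13.99 and 45.6 ± 3.87 TPM in the JUN knockout libraries, and 59.7 ± 9.99 and 41.8 ± 0.555 in the double knockout libraries.

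In SRSF3 the most abundant noncoding transcripts differed little. SRSF3-204, an NMD transcript whose cassette exon is in part shared with transcripts of other genes, had 84.2, 85.5 and 85.2 TPM against 83.7, 81.1 and 77.5 (log2 difference -0.047, SE 0.091). The groups did not overlap, but the lowest JUN knockout and the highest double knockout value were nearly equal. SRSF3-203, with the longer cassette exon, had 6.53 ± 1.90 and 5.33 ± 0.173 TPM. The coding transcript SRSF3-208 had 269.7 ± 18.6 and 260.4 ± 5.53 TPM. The retained intron transcript SRSF3-207, which has 1714 of its 2655 bases outside the coding exons, had 65.1, 69.2 and 70.9 TPM against 59.9, 60.5 and 62.0 (log2 difference -0.14, SE 0.094).

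The retained intron transcripts of SRSF5 did not move together. SRSF5-212, the most abundant, had 39.2, 40.8 and 39.0 TPM against 35.2, 38.8 and 34.7 (log2 difference -0.11, SE 0.076), a separation in which the highest double knockout value lay just under the lowest JUN knockout value. SRSF5-213 was higher on average but overlapped, at 21.7 ± 2.34 and 24.9 ± 4.91 TPM (log2 difference 0.22, SE 0.21). SRSF5-219, a shorter transcript named here after its values were seen, had 8.03, 9.28 and 11.2 TPM against 2.92, 3.59 and 6.10 (log2 difference -1.15, SE 0.36, unadjusted p = 0.0199, edgeR adjusted p = 0.737). It rests on 162 to 243 reads in the JUN knockout and 57.8 to 142 in the double knockout libraries. SRSF5-204, the coding transcript with the highest mean TPM, overlapped at 48.8 ± 4.22 and 47.9 ± 3.49 and held 5.425% to 6.511% of SRSF5 reads. SRSF5-201, SRSF5-209 and SRSF5-202, named after their values were seen, were higher in TPM without overlap. Their log2 differences were 0.425 (SE 0.22), 0.41 (SE 0.18) and 1.53 (SE 0.58, unadjusted p = 0.0423, edgeR adjusted p = 0.818). SRSF5-205, SRSF5-217 and SRSF5-203 overlapped, with log2 differences of 0.26, -0.30 and -0.12. The coding class of SRSF5 had 108 ± 14.7 and 119 ± 9.44 CPM (log2 difference 0.15, SE 0.12).

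**Figure D5:**
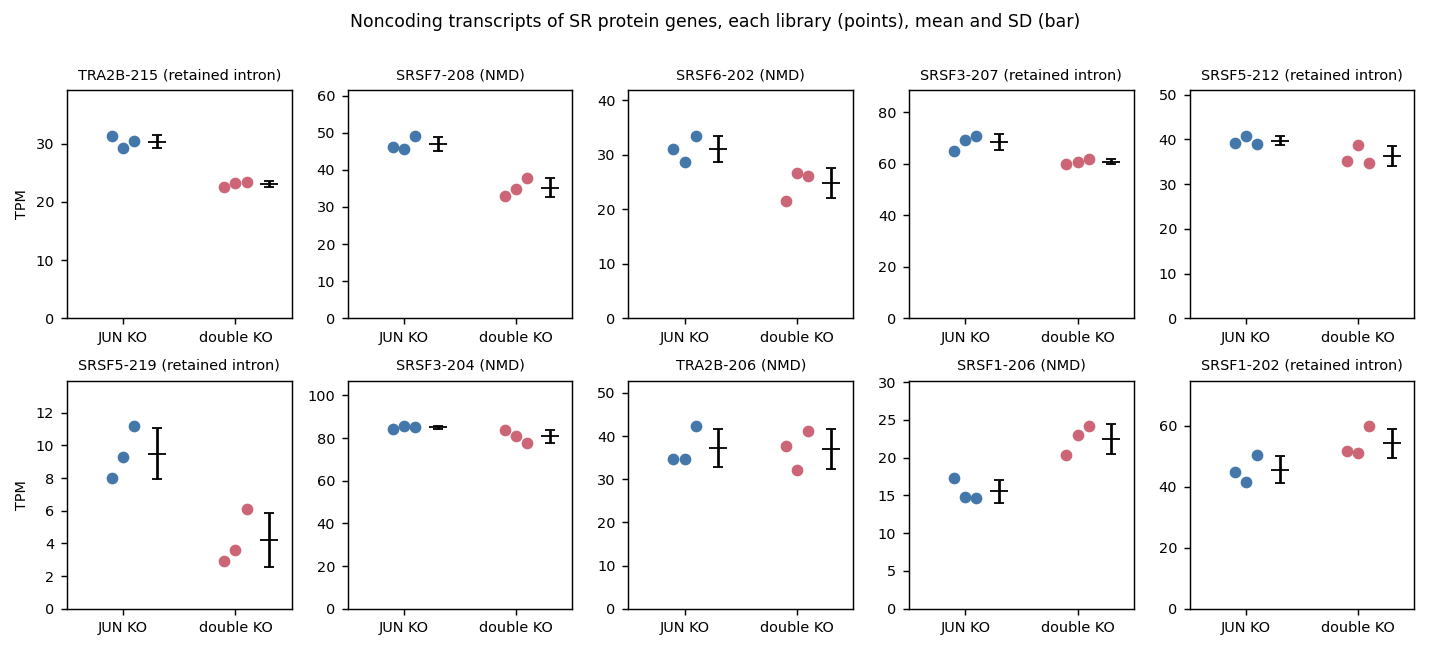
TPM (vertical axis, from 0) of 10 noncoding transcripts of SR genes in each library, with the group mean and SD beside the points. TRA2B-215, SRSF7-208 and SRSF6-202 are lower in every double knockout library than in every JUN knockout library, SRSF1-206 and SRSF1-202 are higher, and TRA2B-206 overlaps.

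The opposite order in SRSF1 came from SRSF1-206 among its NMD transcripts, which was also named after its values were seen. It had 17.3, 14.7 and 14.6 TPM in the JUN knockout libraries and 20.3, 23.0 and 24.2 in the double knockout libraries, all above the JUN knockout values. The log2 difference was 0.57 (SE 0.11), with an unadjusted p of 0.00267, an adjusted p of 0.389 by edgeR and 0.000231 by DESeq2. SRSF1-207, the most abundant NMD transcript of the gene, overlapped, with 49.2 ± 11.9 and 53.2 ± 3.93 TPM. The retained intron transcript SRSF1-202 had 44.7, 41.7 and 50.2 TPM against 51.7, 51.0 and 59.8 (log2 difference 0.28, SE 0.15). Unlike the cassette exon transcripts, SRSF1-206 has 37 bases and SRSF1-207 none in its stop-bearing exon that lie outside the coding exons.

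Of the coding transcripts of SRSF1, SRSF1-205 overlapped at 86.3 ± 19.8 and 83.6 ± 13.9 TPM. SRSF1-201, which is longer as quantified, had 22.5, 23.1 and 27.3 TPM against 21.3, 19.5 and 22.1 (log2 difference -0.19, SE 0.14), lower without overlap.

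SRSF2, which promotes exon inclusion and is required in blood cell formation, had few noncoding reads. Its NMD class had 260, 418 and 401 reads in the JUN knockout libraries and 116, 235 and 621 in the double knockout libraries, a range that was widest within the double knockout. Its NMD transcripts SRSF2-204 and SRSF2-208 share the exon that holds the stop, and which of them held reads varied between libraries. SRSF2-208 had 0 reads in 2 double knockout libraries and SRSF2-204 had 0 in 2 JUN knockout libraries. The class values above are the sum of both, and the part of read assignment in this variation was not tested. The coding transcript SRSF2-202 was at 141 ± 26.8 and 136 ± 20.6 TPM, and the retained intron transcript SRSF2-210 at 11.6 ± 5.00 and 14.2 ± 3.90. The retained intron class as a whole had 513, 540 and 660 reads against 383, 361 and 516, and its log2 difference in CPM was -0.41 (SE 0.17, unadjusted p = 0.0472, edgeR adjusted p = 0.656).

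In SRSF4 the long retained intron transcript SRSF4-208 carried nearly all noncoding reads, with 3.03, 2.26 and 2.53 TPM against 1.68, 2.20 and 2.10 (log2 difference -0.36, SE 0.15). The NMD transcript SRSF4-206 had 13.7 to 36.8 reads per library, and the coding transcript SRSF4-201 had 49.5 ± 3.63 and 45.7 ± 1.32 TPM. In SRSF10 the retained intron transcript SRSF10-213 had 17.7 ± 0.171 and 16.3 ± 1.21 TPM, and the NMD transcript SRSF10-215 had 3.30 ± 0.469 and 3.04 ± 0.538. Its coding transcript SRSF10-203 had 38.2, 38.2 and 38.5 TPM against 36.8, 36.4 and 34.6, lower without overlap (log2 difference -0.066, SE 0.075).

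In SRSF11 the most abundant coding transcript, SRSF11-204, had 30.6, 28.4 and 30.2 TPM against 26.8, 27.7 and 26.5, lower without overlap (log2 difference -0.11, SE 0.080). Its NMD transcript SRSF11-212 overlapped at 2.36 ± 0.913 and 1.92 ± 0.528, and its most abundant processed transcript SRSF11-209 at 36.6 ± 5.47 and 33.7 ± 5.33. The coding transcript SRSF11-201, named after its values were seen, had 25.5, 28.0 and 28.1 TPM against 20.2, 21.6 and 21.9 (log2 difference -0.33, SE 0.10, unadjusted p = 0.0204, edgeR adjusted p = 0.739).

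The other genes of the splicing and decay machinery were described by 4 lists. Of 16 other SR and SR-like genes, 0 were called and 13 were below 0, with a median of -0.15. CLASRP, an SR-like protein that binds CLK kinases, had 122 ± 9.12 CPM against 82.5 ± 5.99 (log2 difference -0.56, SE 0.094, edgeR adjusted p = 0.546, DESeq2 adjusted p = 9.41e-05), and it was named after its values were seen. SRRM2, a large spliceosome-associated scaffold and the most abundant of the list, was at 888 ± 108 and 932 ± 82.9 CPM. Among 11 SR kinases, phosphatase and import genes, 6 were below 0 with a median of -0.0063. SRPK1, which phosphorylates SR proteins in the cytoplasm, was at 300 ± 33.9 and 307 ± 9.58 CPM. CLK2, a nuclear kinase of SR proteins, was listed at 0 in JUN knockout replicates 1 and 3 and in double knockout replicate 1, and at 508, 575 and 582 reads in the other 3 libraries.

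The NMD pathway showed no common change in level. Of 15 NMD factors and exon junction complex genes 0 were called and 9 were below 0, with a median of -0.0031. SMG1, the kinase that phosphorylates UPF1, was at 248 ± 28.8 and 248 ± 13.4 CPM. Their own noncoding-to-coding ratio was below 0 in 10 of 11 tested, with a median of -0.27 beside -0.19 for all genes. Of 23 hnRNP and other RNA-binding protein genes, 0 were called and 19 were below 0, with a median of -0.12. HNRNPA1, which often opposes SR proteins at splice sites, was at 2765 ± 158 and 2730 ± 52.1 CPM. Unadjusted p-values under 0.05 numbered 4, 2, 1 and 4 in the 4 lists, where 5.81% of all genes had one. DESeq2, which called 0.548% of all genes, called CLASRP and RBM39 and no other gene of the 4 lists. RBM39, a splicing factor related to U2AF, had 481, 488 and 479 CPM against 394, 386 and 378 (log2 difference -0.32, SE 0.066, edgeR adjusted p = 0.626, DESeq2 adjusted p = 5.06e-05), and it too was named after its values were seen.

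The genes whose noncoding-to-coding ratio most resembled the mean centred ratio of the members over the 6 libraries were BNIP3L, GPATCH2L, LAS1L, OTUB1 and GPR108, with Pearson correlations of 0.993, 0.985, 0.983, 0.979 and 0.978 among 3067 genes. The points share their libraries, and JUN knockout replicate 1 had the highest ratio in all 5. BNIP3L, for example, was at -2.77 in that library and between -3.90 and -3.40 in the other 5.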

How the data were processed

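RNA-seq of 6 libraries was quantified by the authors with Salmon 1.6.0 (FastQC 0.11.9, build hg38), per the submitters' processing notes. The transcript set and the read layout: not given in the sources used here. Per the file headers, each deposited file lists estimated counts and TPM values per transcript. Of 177456 transcripts, 167027 (94.1%) were joined to GENCODE release 29 by identifier without version, which for 6 of the 117 member transcripts differed in version. Exon structure is that of release 29, where SRSF1-201 has 1513 bases and TRA2B-205 has 2952. As quantified they have 5343 and 4178, so counts of bases outside coding exons can differ from the quantified models. The unmatched transcripts carried 3.58% to 3.71% of reads and were left out.

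Estimated counts were rounded and summed per gene, per gene and class, or kept per transcript. They were tested by edgeR 4.0.16 (R 4.3.3; TMM, filterByExpr, robust quasi-likelihood F test, two-sided, group as the single term). The ratio, log2 of (noncoding reads + 0.5)/(coding reads + 0.5) for genes with a mean of at least 10 reads in each part, was tested by limma 3.58.1 (trend, robust). P-values were adjusted by Benjamini-Hochberg over all features, threshold 0.05. Differences are double knockout minus JUN knockout. Alternatives were RLE scaling, DESeq2 1.42.0, other filters, pseudocounts and units, and each library left out. Recovery was checked on simulated counts, and for the ratio on log2 ratios with simulated normal noise. The gene test recovered 59% of genes changed 2-fold, the class test 26%, the ratio test 21% and the transcript test 0%. At 4-fold these were 86%, 60%, 46% and 6%. Of the simulated features called, 7.64%, 8.51%, 5.63% and 0% were unchanged ones, in the same order.

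Members and lists were chosen with earlier results of these data known. All members were named, with the coding, NMD and retained intron transcript of highest mean TPM; other transcripts were added after their values were seen; in a related list without a call, the member with the highest CPM was named; likeness used genes with at least 100 reads in each part.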

Additional observations from a re-analysis of the deposited data

How the results depend on the processing

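The tests of genes, classes, transcripts and ratios called 0 features, and the fits with a replicate block also called 0 in each of them. Whether the numbers pair the libraries is not settled: same-numbered libraries share a code in the names of the deposited data, but the labels state no pairing. With group means removed, gene CPM of same-numbered libraries had correlations of 0.41, 0.095 and 0.57, and the noncoding-to-coding ratio had 0.023, -0.026 and 0.092. In gene CPM the libraries numbered 1 and 3 were most like their own number and those numbered 2 were not. The exceptions were DESeq2, which called 71 genes, 300 gene-by-class units and 787 transcripts, and the gene test without a low-count filter, which called 1 gene. DESeq2 also called the retained intron class of TRA2B (-0.30), TRA2B-215 (-0.35) and SRSF1-206 (0.58), with the cause of the difference not tested. When 1 library was left out, calls of the retained-intron-to-coding ratio ranged from 0 to 1. The noncoding share of the SR genes was 30.3% and 29.8% as a share of TPM, and 36.8% and 35.5% with processed transcripts counted as noncoding, in the JUN knockout and double knockout libraries. With TPM the SRSF4 ratio difference turned to 0.36.

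Leaving out 1 library turned the sign of several differences that were small against their errors. At the gene level the ranges were -0.21 to 0.12 for SRSF1, -0.28 to 0.0078 for SRSF2, -0.10 to 0.049 for SRSF5 and -0.16 to 0.051 for SRSF6. In the NMD class they were -0.95 to 0.23 for SRSF2, -0.70 to 0.027 for SRSF4, -0.20 to 0.029 for SRSF10, -0.14 to 0.20 for SRSF11 and -0.10 to 0.15 for TRA2B. For transcripts they were -0.071 to 0.34 for SRSF1-207, -0.65 to 0.059 for SRSF4-206, -0.22 to 0.038 for SRSF10-215 and -0.086 to 0.16 for TRA2B-206. The ratio ranged from -0.046 to 0.047 for SRSF10 and from -0.035 to 0.41 for SRSF11. The NMD classes of SRSF4, SRSF10 and SRSF11 held 14 to 144 reads per library, against 116 to 621 in SRSF2 and 1362 to 2012 in TRA2B. The part of depth in these turns of sign was not tested.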
